A study of Mus musculus with 6 samples.

Results

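The secreted Wnt antagonists are 9 of the 22180 genes measured in the outer wall of the mouse eye, which holds the retinal pigment epithelium (RPE), the vascular choroid and the fibrous sclera. They are the secreted frizzled-related proteins Sfrp1, Sfrp2, Sfrp4 and Sfrp5, the related gene Frzb, the Wnt inhibitory factor Wif1 and the Dickkopf genes Dkk1, Dkk2 and Dkk3. A gene entered when the platform annotation gave its probe set exactly 1 symbol, and for Sfrp2, the member with 2 such probe sets, the probe set of higher mean was used. There were 3 samples from 5XFAD mice, heterozygous for the transgene, and 3 from non-transgenic wild-type (WT) littermates. All animals were 12 months old and untreated. The 5XFAD line carries transgenes, among them mutant human APP, under the neuronal Thy1 promoter and is a model of amyloid deposition. The series title ties the aged animals to changes resembling dry macular degeneration. The labels do not give the sex of the animals or say whether a sample is 1 animal or a pool, and the spread between samples that the p-values rest on may be partly technical.

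Wnt proteins bind Frizzled receptors and the co-receptors LRP5 and LRP6, and in the canonical branch this stabilises beta-catenin, which then acts with TCF and LEF factors on target genes. SFRPs, FRZB and WIF1 bind Wnt proteins outside the cell, whereas DKK1 and DKK2 bind the co-receptors. DKK3 is a divergent Dickkopf whose part in Wnt signalling is less settled. Wnt signalling patterns the RPE, the ciliary margin and the eye wall in development, and human SFRP5 was first described from the RPE.

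Median log2 intensity per array lay between 5.59 and 5.71, and correlations between arrays over all probe sets lay between 0.981 and 0.990. Averaged over the other 5 arrays, the correlation was lowest for WT replicate 2 (0.984). App averaged 11.85 ± 0.12 in 5XFAD and 11.77 ± 0.22 in WT samples, and Thy1 averaged 7.64 ± 0.14 in 5XFAD and 7.36 ± 0.18 in WT samples (log2 intensity; here and below a level is the mean ± SD of the 3 arrays of a group, n = 3). Neither passed (limma, Benjamini-Hochberg adjusted p = 0.96 and 0.80), and the human transgene transcripts may not be seen by probes for mouse genes. The RPE markers Ttr and Rgr were bright (means 13.47 and 13.23), and all 10 RPE markers of the list used here were measured. Among 14 lists of cell markers, the groups did not overlap in the mean of 4 lists. The RPE list was lower in 5XFAD, and 3 were higher: surface epithelium (6.37 ± 0.35 in 5XFAD, 4.88 ± 0.09 in WT), pericytes and smooth muscle (9.45 ± 0.22 in 5XFAD, 9.18 ± 0.03 in WT) and the ciliary body and iris. Of the 9 surface epithelium genes measured, 4 were higher at an adjusted p under 0.05 (limma), where 5 genes (0.0225%) passed over all genes. The skeletal muscle list had overlapping groups but differed by 0.73 (log2), as did the ciliary body and iris list. The part of surface epithelium and muscle in the differences of the antagonists was not tested.

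None of the 9 antagonists passed the adjusted threshold of 0.05; the nearest was Sfrp5 (limma over all genes, Benjamini-Hochberg adjusted p = 0.35). Of all genes, 0.0225% passed. Sfrp5 was lower in 5XFAD tissue at 0.639 times the WT level, Dkk3 was higher at 1.43 times and Sfrp2 was higher at 1.19 times. These 3 of 9 members had an unadjusted p under 0.05, where 6.28% of all genes did. In the same 3 members the arrays of the groups did not overlap, which was so in 11.3% of all genes. The members were not chosen independently of earlier results, so that these shares are descriptions. The median difference over the 9 members was -0.05 (log2), and over all genes -0.01. In whole tissue, fewer cells of a type and less RNA per cell cannot be told apart.

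**Figure D1:**
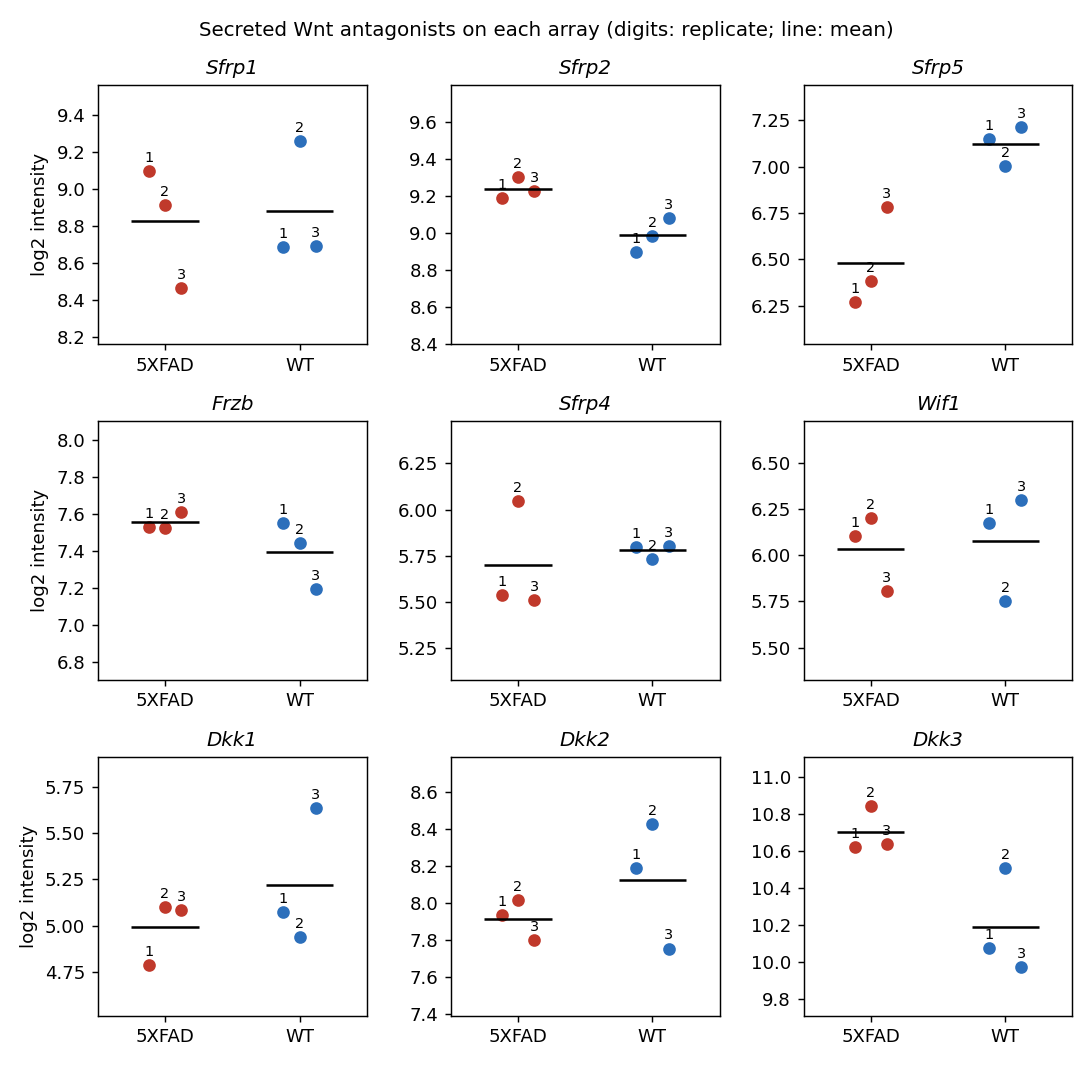
Log2 intensity (y axis, of equal span in every panel) of the 9 antagonists on each array, with 5XFAD left of WT, 1 point per array with its replicate number and a line at the group mean. The groups do not overlap for Sfrp2, Sfrp5 and Dkk3, and they overlap for the other 6 genes.

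Sfrp5, a Wnt-binding SFRP, had the largest absolute difference among the antagonists. Its log2 intensity was 6.27, 6.38 and 6.78 in the 5XFAD samples and 7.15, 7.005 and 7.21 in the WT samples. Every 5XFAD array lay below every WT array, and 5XFAD replicate 3 lay nearest to them. The group means were 6.48 ± 0.27 in 5XFAD and 7.12 ± 0.11 in WT. The difference was -0.65 ± 0.14 (log2, ± SE; 95% interval -0.97 to -0.33; limma, unadjusted p = 0.0013, Benjamini-Hochberg adjusted p = 0.35). Without 5XFAD replicate 3 the difference was -0.80, and it did not pass under any of the 15 alternatives run (limma, Benjamini-Hochberg adjusted p from 0.21 to 0.82).

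The mean of the RPE markers was lower in the same samples as Sfrp5, though not in the same order within WT. The mean of the 10 RPE markers was 10.44, 10.36 and 10.55 in the 5XFAD samples and 10.71, 10.87 and 10.80 in the WT samples, and 5XFAD replicate 3 was again the nearest to WT. WT replicate 2 was the highest array for the markers and the lowest WT array for Sfrp5. Of the 10 markers, 7 were lower at an unadjusted p under 0.05, which 6.28% of all genes reached in either direction. None passed the adjusted threshold (limma, lowest Benjamini-Hochberg adjusted p = 0.15). Best1, a bestrophin channel gene, had the opposite sign (0.26 ± 0.12, limma, unadjusted p = 0.052). Its mean of 5.18 was the lowest of the list and lay under 5.62, the background level described below. Their summed linear intensity ran from 31655 to 36781 in 5XFAD and from 40826 to 44306 in WT samples, and 0 values were at 0. The difference in the marker mean was -0.34, against -0.65 for Sfrp5. The 3 genes with a mean above the median of all genes whose array pattern lay closest to that of Sfrp5 were Rnf152, Slc16a1 and Col8a1, with root mean square differences of 0.091, 0.093 and 0.094 log2 units over the 6 arrays. Slc16a1 encodes a lactate transporter, which was lower by -0.63 ± 0.11 (limma, Benjamini-Hochberg adjusted p = 0.17), and Col8a1 encodes a short-chain collagen. The part of RPE content in the Sfrp5 difference was not tested.

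The sequence before the Sfrp5 start is shown because this member had the largest difference, and that before Dkk1 because Dkk1 is known as a feedback target of beta-catenin. Each line holds the 250 bases before the RefSeq start (GRCm38.p6, minus strand of chromosome 19), read 5′ to 3′ on the strand of the gene. The Sfrp5 stretch is chr19:42202253-42202502 and the Dkk1 stretch is chr19:30549497-30549746. Capitals mark the TCF and LEF core CTTTGA, the OTX and CRX core TAATCC and the TATA box TATAAA, each searched on both strands.
Sfrp5: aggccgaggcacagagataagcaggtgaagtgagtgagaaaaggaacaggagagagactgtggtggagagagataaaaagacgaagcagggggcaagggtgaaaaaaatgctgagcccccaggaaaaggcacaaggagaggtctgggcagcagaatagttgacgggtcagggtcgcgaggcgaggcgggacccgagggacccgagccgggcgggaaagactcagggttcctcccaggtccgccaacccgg
Dkk1: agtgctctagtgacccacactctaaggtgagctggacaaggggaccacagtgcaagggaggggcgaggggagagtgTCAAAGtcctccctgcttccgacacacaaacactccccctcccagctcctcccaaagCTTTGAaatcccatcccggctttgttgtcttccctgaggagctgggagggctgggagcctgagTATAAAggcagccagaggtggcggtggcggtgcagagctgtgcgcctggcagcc
The Dkk1 stretch held the TCF and LEF core at 2 places, whose first bases lie 174 and 117 bases before the start, and a TATA box 54 bases before it. No searched motif was in the Sfrp5 stretch. RefSeq sequences were matched for 6 of the 9 members. Of these, Frzb held the TCF and LEF core 95 bases before its start. At any position and on either strand, this core was in 13.8% of 32851 windows of the same length over all genes. It was in 2 of the 6 members, Dkk1 and Frzb. Sfrp2 held the OTX and CRX core, found in 6.3% of windows. The letters of the TATA box, found in 12.4%, were in Dkk1, Dkk2 and Wif1, where Wif1 held them on the other strand 232 bases before its start. The Sfrp2 window (chr3:83766071-83766320) lies inside the annotated gene, which begins at 83765750. The Dkk2 window ends at 132085291, after the annotated gene start at 132085266. The 3 motifs did not overlap in the stretches printed. A match of letters is a description and not a site.

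Dkk3, the divergent Dickkopf, had the second largest absolute difference; its signal lay at percentile 99.0 of all genes. Its log2 intensity was 10.62, 10.84 and 10.64 in the 5XFAD samples and 10.08, 10.51 and 9.97 in the WT samples. Every 5XFAD array lay above every WT array, and WT replicate 2 came within 0.11 of the lowest 5XFAD array. The group means were 10.70 ± 0.13 in 5XFAD and 10.19 ± 0.28 in WT. The difference was 0.51 ± 0.15 (log2, ± SE; 95% interval 0.18 to 0.85; limma, unadjusted p = 0.0071, Benjamini-Hochberg adjusted p = 0.54). Without WT replicate 2 it was 0.67, with a Benjamini-Hochberg adjusted p of 0.12 (limma), the lowest among the 15 alternatives, which ran up to 0.93.

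Markers of the ciliary body and iris, which adjoin the RPE and choroid at the front of the eye, moved with Dkk3 in their mean. Their mean over 4 measured genes of 5 listed was 6.98, 7.13 and 6.85 in the 5XFAD samples and 6.13, 6.71 and 5.93 in the WT samples. In this mean, as for Dkk3, replicate 2 was the highest array of each group, and WT replicate 3 was the lowest of all arrays. Of the single markers, Zic1 and Best2 shared this order, and Zic2 and Col9a1 did not. Zic1, a transcription factor gene, was at 7.83, 8.33 and 7.58 in the 5XFAD samples and at 6.51, 7.54 and 5.86 in the WT samples. Best2, a bestrophin channel gene of the ciliary epithelium, was at 7.16, 7.32 and 6.93 in the 5XFAD samples and at 6.49, 7.01 and 6.16 in the WT samples. Zic2 was at 6.84, 6.94 and 6.98 in the 5XFAD samples, and Col9a1 was at 6.08, 5.93 and 5.92. WT replicate 1 was the lowest array of both. Col9a1 differed by 0.13 ± 0.11 (limma, unadjusted p = 0.27), with overlapping groups. Of the 4 markers, 3 were higher at an unadjusted p under 0.05, which 6.28% of all genes reached in either direction. None passed the adjusted threshold, and Zic2 came nearest (limma, Benjamini-Hochberg adjusted p = 0.11). Their summed linear intensity ran from 501 to 665 in 5XFAD and from 244 to 457 in WT samples, and 0 values were at 0. The part of this tissue in the Dkk3 difference was not tested.

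Müller glia, another known source of Dkk3 in the eye, were followed through 8 markers. The mean of that list was 8.02 ± 0.30 in 5XFAD and 7.76 ± 0.15 in WT, and the groups overlapped. Of the 8 markers, 2 were higher and 1 lower at an unadjusted p under 0.05, which 6.28% of all genes reached in either direction. None of them passed (limma). Slc1a3, a glial glutamate transporter, was at 6.16, 5.11 and 6.05 in 5XFAD and at 4.77, 5.10 and 4.48 in WT samples. It differed by 0.99 ± 0.26 and Aqp4 by 0.51 ± 0.20, and Sox9 differed in the opposite direction (-0.41 ± 0.14, log2). The summed linear intensity of the list ran from 6217 to 7014 in 5XFAD and from 6143 to 6570 in WT samples, with 0 values at 0, and its part in the Dkk3 difference was not tested. The genes closest to Dkk3 in array pattern were Dach1, a transcription factor gene of eye development, Pcdh7, a protocadherin gene, and Zfp185, with root mean square differences of 0.063, 0.074 and 0.085 log2 units. Their own log2 differences were 0.54 ± 0.12, 0.48 ± 0.17 and 0.47 ± 0.13, and none passed (limma, Benjamini-Hochberg adjusted p from 0.38 to 0.68).

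**Figure D2:**
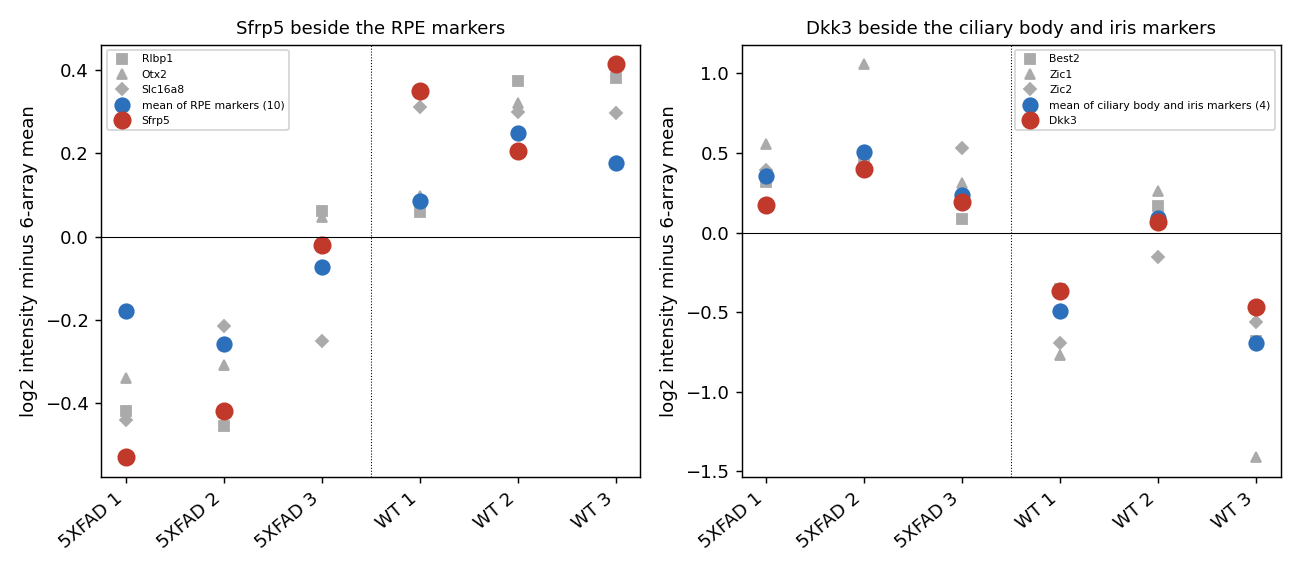
Log2 intensity minus the mean over the 6 arrays (y axis) for each array (x axis), for Sfrp5 with the RPE markers and for Dkk3 with the ciliary body and iris markers. Red points are the antagonist, blue points the mean of the marker list and grey points 3 single markers. The grey markers are Rlbp1, Otx2 and Slc16a8 beside Sfrp5, and Best2, Zic1 and Zic2 beside Dkk3. For the red and blue points, 5XFAD replicate 3 is the 5XFAD array nearest to WT in the Sfrp5 panel. For Slc16a8 it is 5XFAD replicate 2. In the Dkk3 panel, WT replicate 2 is the WT array nearest to 5XFAD.

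Sfrp2, an SFRP of fibroblasts and other mesenchymal cells, differed by less. Its brighter probe set was at 9.19, 9.30 and 9.23 in the 5XFAD samples and at 8.90, 8.98 and 9.08 in the WT samples. The groups did not overlap, and their nearest arrays, 5XFAD replicate 1 and WT replicate 3, lay 0.11 apart. The difference was 0.25 ± 0.10 (log2, ± SE; 95% interval 0.03 to 0.48; limma, unadjusted p = 0.032, Benjamini-Hochberg adjusted p = 0.74). The second Sfrp2 probe set was dimmer, at 5.86, 6.45 and 6.30 in 5XFAD and at 5.96, 6.11 and 6.23 in WT samples. Its groups overlapped, and its difference was 0.10 ± 0.16 (limma, adjusted p = 0.97 over all probe sets). With the mean of both probe sets the difference was 0.18, at an unadjusted p of 0.17 (limma), and the groups overlapped. The fibroblast markers of the sclera had a list mean of 10.18 ± 0.16 in 5XFAD and 10.11 ± 0.13 in WT, with overlapping arrays. Single genes of this list moved both ways. Of its 10 genes, 2 were higher and 0 lower at an unadjusted p under 0.05, and 0 passed (limma). The groups did not overlap in 4 of them, 2 higher and 2 lower in 5XFAD, against 11.3% of all genes. Pericyte and smooth muscle markers, whose list mean was higher on all 5XFAD arrays, had a summed linear intensity from 8412 to 10424 in 5XFAD and from 7923 to 8325 in WT samples, with 0 values at 0. Of these 7 genes, 3 were higher at an unadjusted p under 0.05, which 6.28% of all genes reached in either direction, and 0 passed (limma). The part of either marker list in the Sfrp2 difference was not tested.

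Sfrp1 and Frzb, both Wnt-binding members that were well above the level of most genes, had overlapping groups. Sfrp1 was at 9.09, 8.91 and 8.46 in the 5XFAD samples and at 8.69, 9.26 and 8.69 in the WT samples. WT replicate 2 was its highest array and 5XFAD replicate 3 its lowest, so that the spread within each group (SD 0.33 in both) exceeded the difference of -0.05 ± 0.20 (95% interval -0.50 to 0.39; limma, Benjamini-Hochberg adjusted p = 0.98). Frzb was at 7.53, 7.52 and 7.61 in 5XFAD and at 7.55, 7.44 and 7.19 in WT samples, a difference of 0.16 ± 0.12 (95% interval -0.10 to 0.42; limma, Benjamini-Hochberg adjusted p = 0.92). The Frzb difference was 0.06 without WT replicate 3 and 0.24, with groups that did not overlap, without WT replicate 1. The gene closest to Sfrp1 in array pattern was Dact1, an intracellular regulator of Wnt signalling that binds Dishevelled, with a root mean square difference of 0.046 log2 units. Dact1 was at 7.34, 7.16 and 6.74 in 5XFAD and at 6.95, 7.58 and 7.06 in WT samples, so that it shared the high WT replicate 2 and the low 5XFAD replicate 3. Zbtb41 and the aldehyde dehydrogenase gene Aldh2 followed at 0.085 and 0.087.

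Dkk2, a DKK that binds the LRP co-receptors, was at 7.94, 8.02 and 7.80 in the 5XFAD samples and at 8.19, 8.43 and 7.75 in the WT samples. WT replicate 3 was the lowest array of all and WT replicate 2 the highest, and the difference was -0.21 ± 0.16 (95% interval -0.58 to 0.16; limma, Benjamini-Hochberg adjusted p = 0.93). Either of these WT arrays decided its size: without WT replicate 2 it was -0.06 (limma, unadjusted p = 0.72, Benjamini-Hochberg adjusted p = 0.95). Without WT replicate 3 it was -0.39 and the groups did not overlap (limma, unadjusted p = 0.015, Benjamini-Hochberg adjusted p = 0.82).

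Dkk1, Sfrp4 and Wif1 were the dim members. To describe the level of genes not looked for in this tissue, 1394 olfactory and vomeronasal receptor genes were used, of which 95% had a mean under 5.62. Dkk1 averaged 4.99 ± 0.17 in 5XFAD and 5.22 ± 0.37 in WT and lay within that range, above 89.6% of the receptor genes. Its arrays were at 4.79, 5.10 and 5.08 in 5XFAD and at 5.07, 4.94 and 5.64 in WT, and WT replicate 3 stood above the other 5. The Dkk1 difference was -0.23 ± 0.18 (95% interval -0.63 to 0.18; limma, Benjamini-Hochberg adjusted p = 0.93). It was -0.37 without WT replicate 2, -0.13 without 5XFAD replicate 1 and -0.02 without WT replicate 3. Sfrp4 averaged 5.70 ± 0.30 in 5XFAD and 5.78 ± 0.04 in WT, and its high array was 5XFAD replicate 2 (6.05). Wif1 averaged 6.03 ± 0.21 in 5XFAD and 6.08 ± 0.29 in WT. Their differences were -0.08 ± 0.15 (95% interval -0.41 to 0.25) and -0.04 ± 0.16 (95% interval -0.40 to 0.32), and neither passed (limma, Benjamini-Hochberg adjusted p = 0.97 and 0.98). Without 5XFAD replicate 2 the Sfrp4 difference was -0.25 and the groups did not overlap (limma, unadjusted p = 0.048, Benjamini-Hochberg adjusted p = 0.96), while the sign of Sfrp4 and Wif1 turned with other arrays left out.

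**Figure D3:**
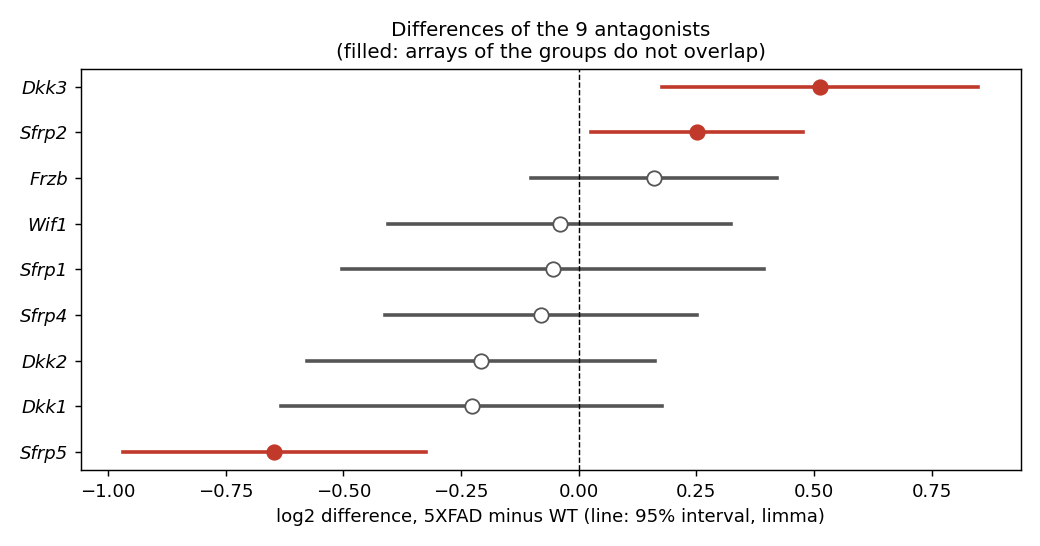
Log2 difference, 5XFAD minus WT (x axis), for each antagonist, with its 95% interval from limma; filled red points are the 3 genes whose groups do not overlap. The intervals of Dkk3, Sfrp2 and Sfrp5 exclude 0 before adjustment, and those of the other 6 genes include it.

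The partners of the antagonists at the cell surface gave 0 adjusted calls among 5 genes. Kremen1, which with DKK proteins removes LRP6 from the membrane, was at 7.63, 7.79 and 7.95 in 5XFAD and at 7.56, 7.37 and 7.53 in WT samples. The groups did not overlap, at a difference of 0.30 ± 0.12 (limma, unadjusted p = 0.028, Benjamini-Hochberg adjusted p = 0.73). The co-receptor genes Lrp5 (-0.17 ± 0.10) and Lrp6 (-0.15 ± 0.10) had lower values on every 5XFAD array than on any WT array, with Benjamini-Hochberg adjusted p-values of 0.89 and 0.92 (limma). Kremen2, the paralog of Kremen1, differed by -0.16 ± 0.10, and the highest 5XFAD array and the lowest WT array were both at 6.14.

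Among 14 Frizzled and other Wnt receptor genes, 1 (7.14%) had an unadjusted p under 0.05, close to the 6.28% of all genes, and 0 passed. Fzd4, the receptor for Norrin and Wnt proteins that retinal vessels require, was at 9.31, 9.44 and 9.60 in 5XFAD and at 9.76, 10.16 and 9.90 in WT samples. Its groups did not overlap, and the difference was -0.49 ± 0.13 (limma, unadjusted p = 0.0044, Benjamini-Hochberg adjusted p = 0.50). Fzd5 differed by 0.21 ± 0.10 and the dim Fzd10 by -0.14 ± 0.10. Endothelial markers had overlapping groups, with a list mean of 9.13 ± 0.19 in 5XFAD and 9.13 ± 0.05 in WT. The mean of the RPE markers was lower on all 5XFAD arrays. In that mean, as in Fzd4, 5XFAD replicate 3 was nearest to WT and WT replicate 2 was the highest array. The part of either cell type in the Fzd4 difference was not tested. The lists of Wnt ligands (19 genes), of maturation and secretion (2), of R-spondins with receptor turnover (9) and of other extracellular inhibitors (10) held 0 genes at an unadjusted p under 0.05. Among the ligands, Wnt16 differed by 0.35 ± 0.19, Wnt9b by -0.31 ± 0.17 and Wnt9a by -0.26 ± 0.15. Of the other inhibitors, Sostdc1, an extracellular BMP and Wnt antagonist, was lower on all 5XFAD arrays (8.88 ± 0.04 in 5XFAD, 9.05 ± 0.03 in WT; limma, Benjamini-Hochberg adjusted p = 0.86). Draxin differed by -0.19 ± 0.11 and Apcdd1 by 0.20 ± 0.13. Wls, which carries Wnt proteins to the cell surface, differed by -0.14 ± 0.10, and Porcn, the enzyme that acylates them, by -0.03 ± 0.13. The R-spondin genes Rspo2 and Rspo3 differed by 0.32 ± 0.23 and -0.22 ± 0.18, and Znrf3, a ubiquitin ligase that removes Frizzled receptors, by 0.08 ± 0.09.

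Inside the cell, 0 of 16 measured beta-catenin pathway genes of 19 listed had an unadjusted p under 0.05, and the median difference was 0.07. The 3 of smallest p were the co-activator genes Bcl9 (0.19 ± 0.10) and Pygo1 (0.16 ± 0.12) and the TCF gene Tcf7l2 (0.23 ± 0.14). Of 16 measured Wnt and beta-catenin target genes, 13 had a positive difference, with a median of 0.11 against -0.01 over all genes, and 0 passed the adjusted threshold. Over all genes, 52.8% of differences were negative. Apcdd1, Lef1, Znrf3, Rnf43, Notum and Lgr5 among these targets also stand in the other lists. Cd44, a hyaluronan receptor, was higher on all 5XFAD arrays by 0.36 ± 0.10 (limma, unadjusted p = 0.0062, Benjamini-Hochberg adjusted p = 0.53). Nkd2, an inhibitor that binds Dishevelled, was higher on all 5XFAD arrays by 0.31 ± 0.11 (limma, Benjamini-Hochberg adjusted p = 0.68). The cyclin gene Ccnd1 had the opposite sign, at 8.73, 8.64 and 9.06 in 5XFAD and at 8.93, 9.34 and 9.34 in WT samples (-0.40 ± 0.15; limma, Benjamini-Hochberg adjusted p = 0.73). Axin2, the feedback target most widely used as a readout of beta-catenin, averaged 7.32 ± 0.07 in 5XFAD and 7.14 ± 0.23 in WT with overlapping groups (0.18 ± 0.13; limma, Benjamini-Hochberg adjusted p = 0.92). Over the 85 measured genes of all these lists, 5 (5.88%) had an unadjusted p under 0.05, close to the 6.28% of all genes. The groups did not overlap in 15 of them (17.6%, 9 higher and 6 lower in 5XFAD), against 11.3% of all genes, among them 5 of 14 receptor genes and 3 of 5 partner genes. Of the 85 genes, each counted once, 44 had a positive and 41 a negative difference.

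**Figure D4:**
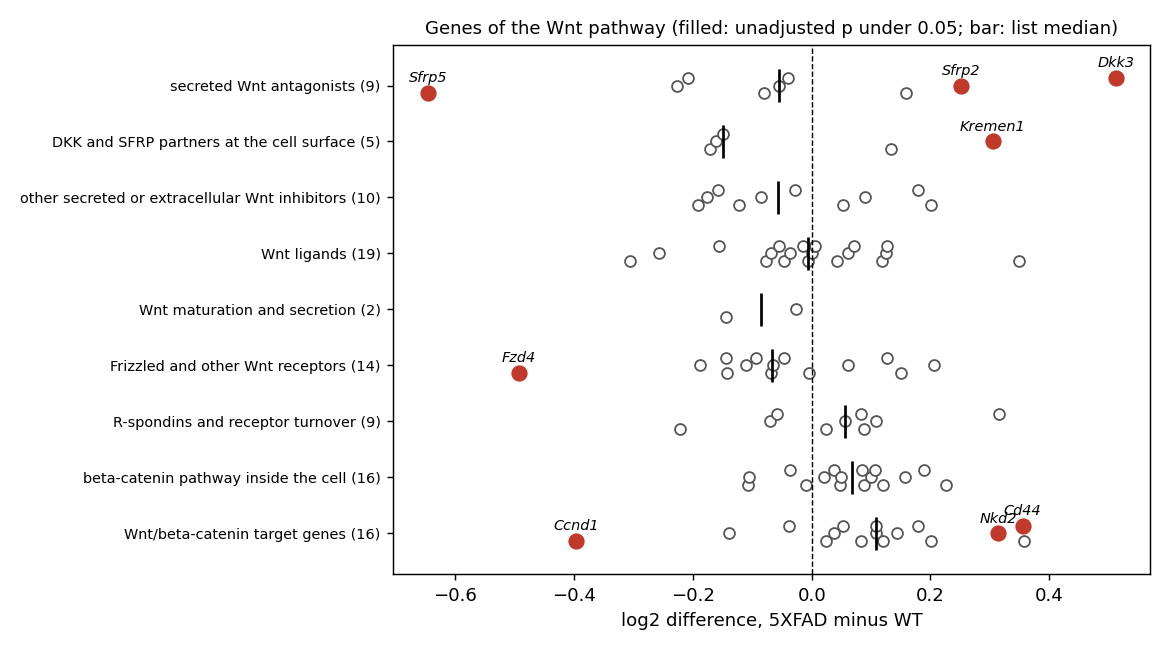
Log2 difference, 5XFAD minus WT (x axis), of each measured gene of the antagonists and of 8 lists of the Wnt pathway (rows, with the number of genes), with a bar at each list's median. Filled points have an unadjusted p under 0.05 (limma); none passed after adjustment over all genes.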

How the data were processed

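Biotin-labelled cDNA from total RNA of 6 samples (3 5XFAD, 3 WT) was measured on Affymetrix arrays, 1 per sample, per the labels' protocols. The deposited log2 intensities, 1 per probe set and array, come from RMA (background correction, quantile normalization and probe summary) and Affymetrix Expression Console 1.1, as the submitters' processing notes name them; neither probe masking nor pooling is described there. Groups and replicate numbers came from the sample titles. Of 33793 probe sets, 23521 had 1 symbol in the platform annotation, 1814 several and 8458 none; for 1082 genes with several probe sets the one of highest mean was kept, which left 22180 genes. The two-sided comparison used lmFit and eBayes of limma 3.58.1 (R 4.3.3), where 5.23 prior degrees of freedom were added to 4 residual ones, and p-values were adjusted over all genes by Benjamini-Hochberg (threshold 0.05). The precision is limited by the number of arrays, and no detection calls were used.

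The members, the pathway and marker lists and the tests were chosen with earlier results of these data known. Named were all members, the 3 genes of smallest p in each pathway list, Lrp5, Lrp6, Kremen1, Kremen2 and Axin2, App and Thy1, and for the 3 members of largest SD over the arrays the 3 genes of nearest gene-centred pattern among the 11090 above the median level. Single marker genes named beside Sfrp5 and Dkk3, and the receptor genes used for the background level, were chosen after their values were seen. Tcf7, Gsk3a and Csnk1d of the pathway lists had no probe set of 1 symbol. The fit was tested on simulated data. Alternatives were a replicate block, filters on the dimmest 30% and 50% of genes, array weights, a prior with trend and robust fit, arrays centred on their medians, a second quantile normalization, all probe sets of a gene averaged or tested singly, and each array left out.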

Additional observations from a re-analysis of the deposited data

How the results depend on the processing

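No antagonist passed under any of the 15 alternatives (limma, lowest Benjamini-Hochberg adjusted p = 0.12 for Dkk3). Sfrp5, Dkk3 and Sfrp2 kept their direction under all of them, but most could not have changed it. The block, the filters and the prior leave the estimate as it is. Leaving out or weighting arrays cannot turn the sign where the groups do not overlap. Sfrp5 ran from -0.80 to -0.54, Dkk3 from 0.41 to 0.67 and Sfrp2 from 0.18 to 0.30 (log2). Where probe sets were tested singly, Sfrp2 was read from its brighter one. Its dimmer probe set, at 0.10 ± 0.16, lies below that range. The number of antagonists at an unadjusted p under 0.05 lay between 2 and 4 (main value 3). The differences of Sfrp1, Sfrp4 and Wif1, all near 0, changed sign: Sfrp1 was 0.047 with array weights and ran from -0.19 to 0.14 with an array left out, Sfrp4 from -0.25 to 0.014 and Wif1 from -0.20 to 0.075. The cause was not tested. With an array left out, Dkk1 ran from -0.37 to -0.02, Dkk2 from -0.39 to -0.06 and Frzb from 0.06 to 0.24. Over all genes 5 passed, against 8 without the dimmest 30% of genes, 9 with median centring, 9 with the trended prior, 8 with array weights and from 3 to 19 with an array left out (3 without WT replicate 3, 19 without WT replicate 2). Of the 85 pathway genes, 5 had an unadjusted p under 0.05 (from 3 to 7 with an array left out, lowest without 5XFAD replicate 2). Same-numbered samples correlated at -0.06, -0.05 and 0.13 in their deviations from the group means, and other pairs between -0.08 and 0.13. With 3 arrays per group these values cannot decide whether the numbers pair the samples, and the labels do not say so. With the replicate block the number of antagonists at an unadjusted p under 0.05 was 3, 6 genes passed over all genes and 9 pathway genes had an unadjusted p under 0.05, and no antagonist passed. Dkk1 and Sfrp4 lie in the dimmest 50% of genes and have no value there, and the Dkk1 level lies within the range of most receptor genes of the nose. The limits are 3 arrays per group and a tissue of several layers.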
